A study of Rattus norvegicus with 33 samples.

Results

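Plant material that the rat's own enzymes leave undigested reaches the cecum, where bacteria take it apart. The functions examined here are the 9 of 1057 functional subsystems (named groups of genes that act in 1 process) whose name holds cellulos, xylan, xylose, arabinose, starch, pectin, beta-glucoside or fructooligosaccharide. No name held pectin. By role they were 4 polymer subsystems (Cellulosome, Xylan degradation in plants, Starch degradation in plants and Starch biosynthesis in plants), 3 of pentose use (Xylose utilization, L-Arabinose utilization and An Arabinose Sensor) and 2 of short sugars (Beta-Glucoside Metabolism, and Fructooligosaccharides(FOS) and Raffinose Utilization, called FOS and raffinose here). The tables used here give a subsystem by its name, with no genes under it.

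Shotgun DNA sequencing of cecal contents compared rats of 2 inbred strains at 14 to 15 weeks of age, with no treatment named in the labels. Spontaneously hypertensive rats (SHR), which develop high blood pressure, were represented by 10 females and 7 males. Their comparison strain, Wistar Kyoto (WKY), was represented by 9 females and 7 males. Each sample is a rat of its own, and rats are numbered here within a group in accession order. Housing and litters are not in the labels, and p-values would be too small for cage mates or littermates. Between 95952 and 489862 reads per rat were assigned to a subsystem, with group medians of 214911 for females and 315719 for males of SHR, and 396240 for females and 382975 for males of WKY. The 3 shallowest libraries, SHR female 9, SHR female 10 and SHR male 4, were all SHR, so that depth and strain are partly confounded. DNA counts show what part of a library's reads falls to a gene group, not how many copies a cecum holds or how much was in use. More of the bacteria that carry a gene group cannot be told apart from more copies per bacterium.

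Fibre breakdown runs in steps. Enzymes at the cell surface first cut long chains such as cellulose and xylan, transporters then bring in the pieces, and pathways inside the cell use the single sugars, among them the pentoses xylose and arabinose that come from hemicellulose. Cellulosomes are surface complexes of many cellulose- and xylan-cutting enzymes, known best from clostridia and ruminococci. Bacteroidales, an order of Gram-negative gut anaerobes, take up polysaccharides through outer membrane transport systems, and lactobacilli and bifidobacteria are known for growth on short oligosaccharides.

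The name of the set, fibre and starch breakdown, was borne out only in part by the reads. Of the polymer subsystems only Cellulosome was well covered, with 31714 reads over all rats and 112 to 2305 in a rat. Starch degradation in plants had 9 reads, in 6 of 33 rats, and Starch biosynthesis in plants had 5, in 5 of 33. Xylan degradation in plants had 0 of 10682219 reads, which allows a share of up to 2.81e-05% from counting error alone. Those 3 names refer to plant pathways, and bacterial starch use carries other names (Maltose and Maltodextrin Utilization, for example) that the rule does not hold. The values of the 9 below therefore do not describe starch breakdown. They describe Cellulosome and subsystems named for the use of pentoses and short sugars, and where those sugars came from was not measured.

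An Arabinose Sensor, a sensing system for arabinose, was thin too, with 118 reads in 27 of 33 rats and at most 12 in a rat. Its values in normalized reads (reads divided by the library's size factor) ran from 0 to 10.5 with a median of 2.86 in SHR females, and from 0 to 7.20 with a median of 4.01 in SHR males. WKY females ran from 0 to 4.78 with a median of 2.55, and WKY males from 1.42 to 5.92 with a median of 3.37. All 4 groups overlapped, within a few reads of each other. The other 5 subsystems averaged at least 10 normalized reads and carry the results that follow. All 9 together took 3.00 ± 0.566% (mean ± SD) of a library's subsystem reads in females and 2.78 ± 0.328% in males of SHR, and 2.79 ± 0.640% and 2.68 ± 0.473% in those of WKY.

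Cellulosome varied most from rat to rat. SHR females ran from 343 to 1506 normalized reads with a median of 1145, and SHR males from 355 to 1612 with a median of 641. WKY females ran from 371 to 1801 with a median of 776, and WKY males from 126 to 1161 with a median of 367. Rats low and high in Cellulosome thus occurred in every group, and the highest rat had 14.3 times the normalized reads of the lowest. All 9 WKY females lay above the median of the WKY males, yet the ranges of the 4 groups overlapped. Means ± SD were 1052 ± 409 in females and 796 ± 494 in males of SHR, and 1031 ± 558 and 542 ± 387 in those of WKY.

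The pentose pathways held more reads and spread less. Xylose utilization, which turns xylose into an intermediate of the pentose phosphate pathway, ran from 1208 to 3797 normalized reads with a median of 2679 in SHR females and from 1670 to 3127 with a median of 2080 in SHR males. WKY females ran from 1254 to 3470 with a median of 2225, and WKY males from 1112 to 3310 with a median of 2119. The lowest SHR female stood apart from the other 9 of its group and was the shallowest library, SHR female 9. The ranges overlapped in all 4 groups, with a 3.42-fold span over all rats.

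L-Arabinose utilization, the matching route for the arabinose of hemicellulose and pectin side chains, ran from 828 to 2265 normalized reads with a median of 1644 in SHR females and from 979 to 1809 with a median of 1335 in SHR males. WKY females ran from 913 to 2105 with a median of 1426, and WKY males from 970 to 1977 with a median of 1140. Again no group stood clear of another. The highest rat had 2.74 times the normalized reads of the lowest.

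The short-sugar subsystems were the steadiest. Beta-Glucoside Metabolism covers uptake and splitting of sugars bound by a beta-glucosidic bond, such as cellobiose and plant glucosides. Its normalized reads ran from 1329 to 1628 with a median of 1517 in SHR females, and from 1367 to 2441 with a median of 1475 in SHR males. WKY females ran from 1234 to 1854 with a median of 1675, and WKY males from 1378 to 2400 with a median of 1649. None of the 10 SHR females reached the WKY female median, but they lay inside the WKY female range. The highest SHR male was SHR male 4, at 2441 normalized reads, one of the 3 shallowest libraries.

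FOS and raffinose, which covers short fructose chains and the galactose-bearing sugars of seeds and legumes, ran from 1420 to 2690 normalized reads with a median of 2335 in SHR females and from 2000 to 2437 with a median of 2226 in SHR males. WKY females ran from 1452 to 2533 with a median of 2111, and WKY males from 2048 to 2919 with a median of 2333. Neither group of males held a rat as low as the lowest females of its strain. The span over all rats was 2.06-fold, against 1.98-fold for Beta-Glucoside Metabolism.

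**Figure D1:**
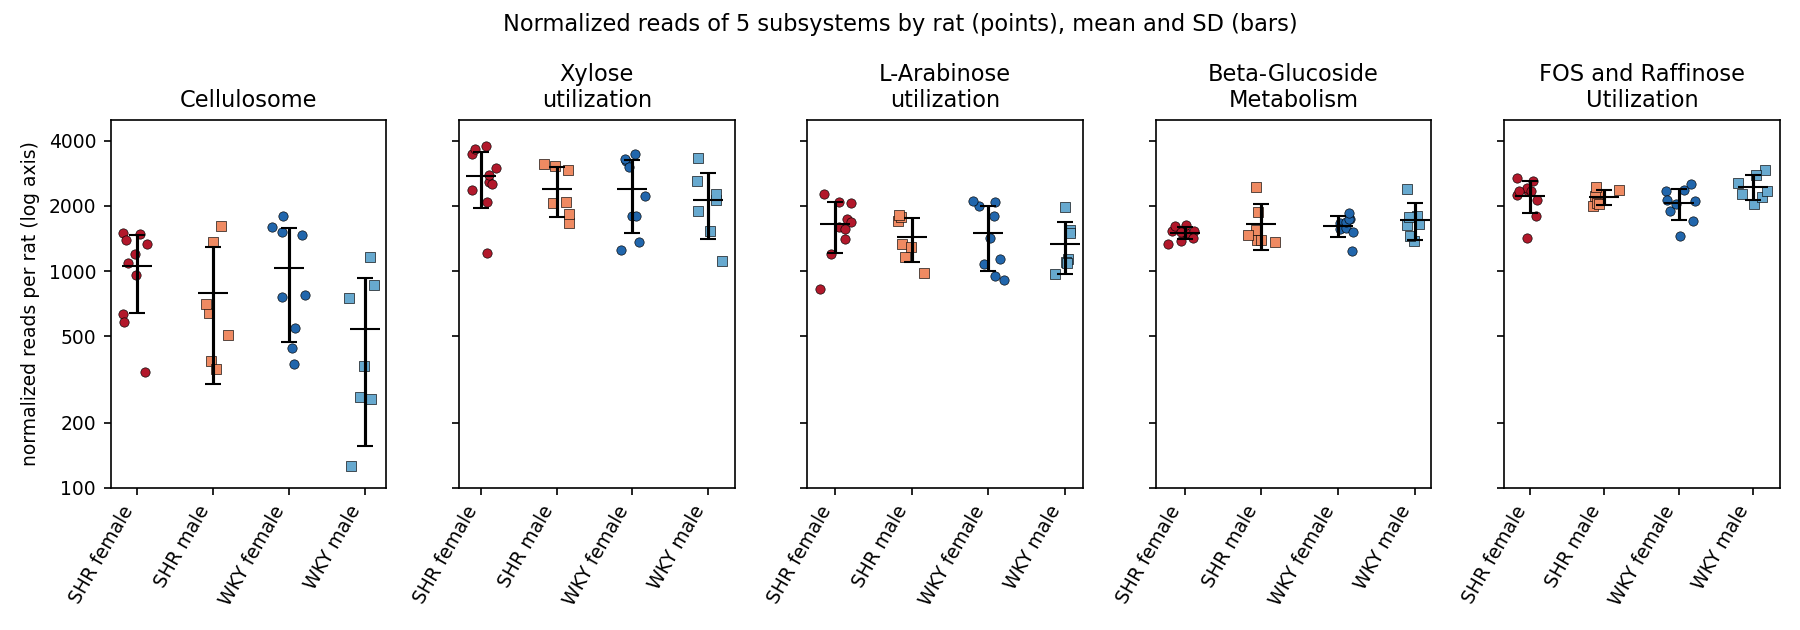
Normalized reads (reads divided by the library's size factor, log axis) of 5 subsystems in each of 33 rats, by strain and sex; points are rats, and bars give the mean and SD of the group. Cellulosome spans 126 to 1801 normalized reads with low and high rats in every group, while Beta-Glucoside Metabolism stays between 1234 and 2441.

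The spread between rats of 1 group can be set beside that of other functions. Over the 430 functions that averaged at least 100 normalized reads, the median SD within groups was 0.22 on the log2 scale. That of Cellulosome was 0.89, larger than in 99.1% of them. Xylose utilization had 0.50, larger than in 93.0%, and L-Arabinose utilization 0.42, larger than in 87.9%. FOS and raffinose (0.22, 50.7%) and Beta-Glucoside Metabolism (0.21, 46.5%) were ordinary functions in this respect.

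Whether the strains or sexes differ is the question of the design. None of the 9 subsystems was called higher or lower (limma, Benjamini-Hochberg adjusted p under 0.05 over 1057 functions) between the strains in females, in males or averaged over the sexes, between the sexes of SHR or of WKY, or for the strain by sex term (strain effect in females minus that in males). Xylan degradation in plants, with no read in any rat, could not be called, and An Arabinose Sensor and both starch subsystems held few reads. The share of all functions called was 8.42% between the strains in females, 2.46% in males, 17.2% averaged over the sexes, 0% between the sexes of SHR, 0.662% between those of WKY and 0% for strain by sex. At an unadjusted p under 0.05 the counts over the 9 were 0 in each comparison but the sexes of WKY, where it was 2. Over all 1057 functions those counts were 264 between the strains in females, 203 in males and 334 averaged over the sexes. They were 48 between the sexes of SHR, 193 between those of WKY and 82 for strain by sex. Of the 8 subsystems with a read, edgeR's quasi-likelihood test and DESeq2 on the recovered reads each called 0 in each comparison as well, with the same 2 under an unadjusted 0.05 between the sexes of WKY. In that comparison edgeR put 210 and DESeq2 185 of 1024 functions under the unadjusted threshold. The shares of 1024 functions that edgeR and DESeq2 called were 9.96% and 12.2% between the strains in females, 3.61% and 7.52% in males, 19.8% and 21.4% averaged over the sexes, 0% and 0% between the sexes of SHR, 3.52% and 6.64% between those of WKY, and 0% and 0.0977% for strain by sex. The authors' deposited tables of their own models list 85 functions for females, 16 for males and 148 in general, and hold 0 of the 9. Those lists end at adjusted p-values of 0.00955, 0.00589 and 0.00968, below the threshold of 0.05 used here.

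Averaged over the sexes, Cellulosome had a log2 fold change of 0.40 ± 0.30 (SE) for SHR minus WKY, a fold of 1.32 with a 95% confidence interval of 0.871 to 2.01 (limma, adjusted p = 0.366). For Xylose utilization the fold was 1.17 (0.923 to 1.47, adjusted p = 0.376), and for L-Arabinose utilization 1.10 (0.902 to 1.34, adjusted p = 0.525). These 3 intervals were the widest, as the SDs within groups were the largest. Beta-Glucoside Metabolism had a fold of 0.937 (0.847 to 1.04, adjusted p = 0.385) and FOS and raffinose 0.989 (0.888 to 1.10, adjusted p = 0.934). Strain differences inside these intervals are not excluded by these 33 rats. The median log2 fold change was 0.14 over the 9 and -0.02 over all functions.

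The strain difference of Cellulosome was 0.69 ± 0.45 (SE) in males (limma, adjusted p = 0.410) and 0.11 ± 0.39 in females (adjusted p = 0.926), on the log2 scale. With 1 library left out at a time, the value in females ran from -0.0445 (without WKY female 1) to 0.28, so its sign was not settled. The difference between them, -0.58 ± 0.59, did not pass (adjusted p = 0.886), so no dependence on sex was shown. In males 6 of 7 SHR rats lay above the WKY median, and in females 7 of 10 did. Of the pentose pathways, Xylose utilization was at 0.21 in males and 0.23 in females and L-Arabinose utilization at 0.12 and 0.16. FOS and raffinose had opposite signs, 0.11 in females and -0.14 in males, with a strain by sex term of 0.26 ± 0.15 (adjusted p = 0.758).

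Between the sexes of WKY, Cellulosome was at a log2 fold change of 1.07 ± 0.42 (SE) for female minus male, a fold of 2.10 with an interval of 1.16 to 3.81 (limma, unadjusted p = 0.0162, adjusted p = 0.150). Over the alternative settings the adjusted p lay between 0.0526 (without WKY male 7) and 0.374. FOS and raffinose was at -0.25 ± 0.11, a fold of 0.840 (0.721 to 0.978, unadjusted p = 0.0264, adjusted p = 0.193). Both fail the correction over all functions. In SHR the same differences were 0.49 ± 0.41 and 0.00 ± 0.11.

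**Figure D2:**
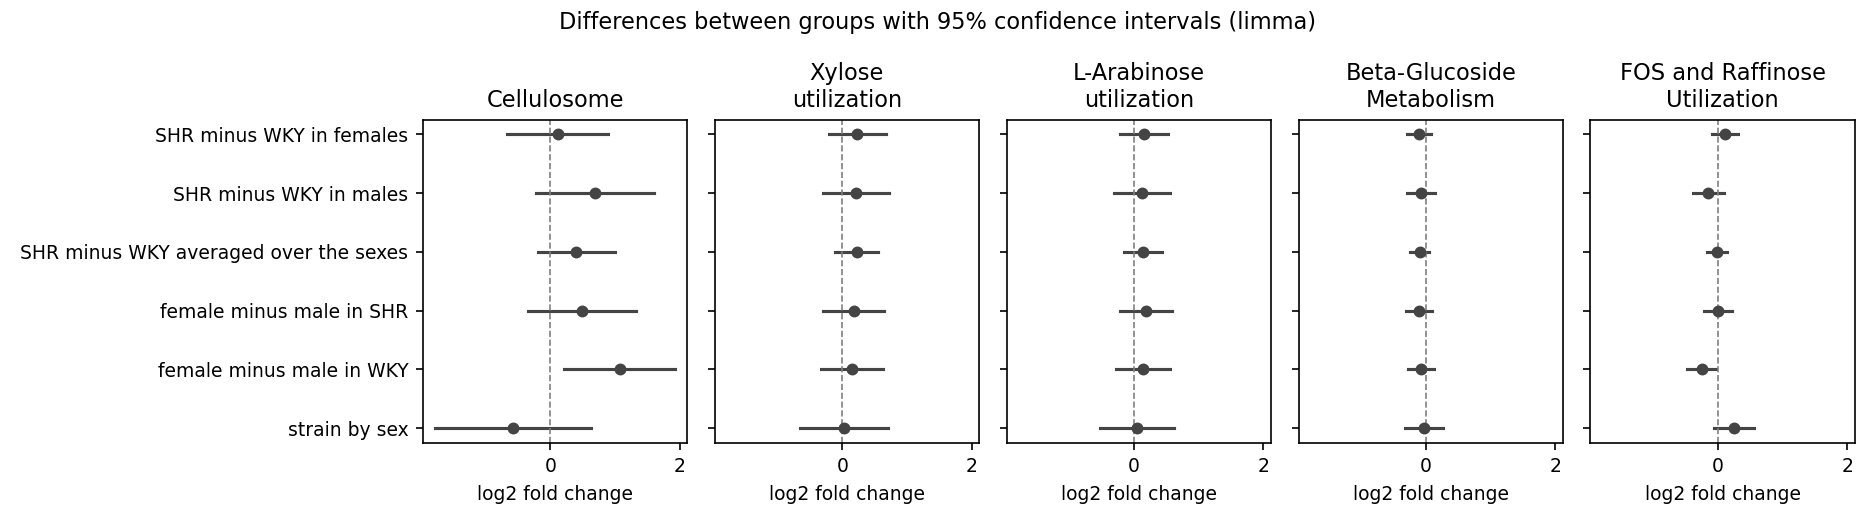
Log2 fold changes (points) with 95% confidence intervals (lines) from limma for 5 subsystems in 6 comparisons; the dashed line marks no difference. The intervals include 0 except for Cellulosome (1.07) and FOS and raffinose (-0.25) between the sexes of WKY, and neither passed the adjustment over 1057 functions.

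Because the 3 shallowest libraries were all SHR, the strain differences were recomputed without them. Averaged over the sexes the log2 fold changes became 0.62 for Cellulosome (limma, adjusted p = 0.134), 0.35 for Xylose utilization (0.11), 0.26 for L-Arabinose utilization (0.147) and -0.14 for Beta-Glucoside Metabolism (0.122). All 4 then lay under an unadjusted p of 0.05, as did 358 of all 1057 functions, and none passed the adjustment. In females FOS and raffinose moved from 0.11 to 0.23 (adjusted p = 0.0665, range over the alternatives 0.0665 to 0.816). The size of the strain differences in the fibre and pentose subsystems thus depended on those libraries, while the absence of a call did not.

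The clearest pattern lay among rats, whatever their strain and sex. After the mean of each group was removed, Xylose and L-Arabinose utilization moved almost as 1 quantity over the 33 rats, with a Pearson r of 0.96 and a Spearman rho of 0.97 (permutation within groups, adjusted p = 8.12e-05 for r). That adjustment, as for the other pairs of subsystems below, covers 2135 pairs, every pair among the 5 and every pair of the 5 with another function, and 1e-05 is the smallest p the permutations can give. Within the groups r lay between 0.87 in WKY males and 0.99 in WKY females. It was 0.94 without the 2 rats farthest from the median of L-Arabinose utilization. Whether 1 read can count under 2 subsystems is not given in the sources used here. Shared genes and shared bacteria therefore cannot be told apart in an r between subsystems.

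Cellulosome moved with both pentose pathways, at r = 0.83 with L-Arabinose utilization and 0.82 with Xylose utilization (rho 0.84 and 0.83, permutation, adjusted p = 8.12e-05 for each r). Within the groups these values ran from 0.76 to 0.96 and from 0.78 to 0.89, and without the 2 farthest rats they were 0.83 and 0.82. Rats with more reads named Cellulosome thus also had more reads of the pentose pathways, in each strain and sex. The points share libraries and depth, which is taken up below.

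FOS and raffinose followed the pentose pathways most closely in females, though a difference between the sexes was not tested. Over all rats its r was 0.72 with Xylose utilization and 0.69 with L-Arabinose utilization (rho 0.58 and 0.57, permutation, adjusted p = 0.00014 and 0.000245 for r). Within SHR females r was 0.89 and 0.91, and within WKY females 0.92 and 0.88. In WKY males it was 0.50 and 0.33, in SHR males -0.31 and -0.35, and without the 2 farthest rats the pooled values fell to 0.56 and 0.53. With Cellulosome its r was 0.43 (permutation, adjusted p = 0.0334), but rho was 0.34 with an adjusted p of 0.134, and r was -0.62 in SHR males. In SHR females FOS and raffinose and both pentose pathways also moved with depth, as given below.

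Beta-Glucoside Metabolism stood outside this pattern. Its r was -0.32 with Cellulosome, -0.14 with L-Arabinose utilization and -0.03 with Xylose utilization (permutation, adjusted p = 0.191, 0.543 and 0.915). The signs with the pentose pathways were unsettled, since without the 2 farthest rats r was 0.08 with each. With FOS and raffinose it had r = 0.34 (adjusted p = 0.046), while rho was 0.28 with an adjusted p of 0.23.

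Genera named in the same libraries gave a second view of these rats. For 31 genera that averaged at least 0.5% of reads, deviations from the group means were correlated with those of the 8 subsystems with a read, 248 pairs in all. Cellulosome went with Prevotella at r = 0.96 (rho 0.93) and with Phocaeicola at 0.93 (rho 0.91), each with an adjusted p of 8.86e-05 by permutation. Prevotella and Phocaeicola are both polysaccharide-using Bacteroidales. Within the groups r ran from 0.88 to 0.98 for Prevotella, and it was 0.95 without the 2 rats farthest from the median of the genus. Prevotella itself took only 0.911 ± 0.308% of reads in SHR females and 0.443 ± 0.267% in WKY males.

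The genera of highest r with the pentose pathways were of the same order. L-Arabinose utilization went with Bacteroides at r = 0.83 and Phocaeicola at 0.80, and Xylose utilization with Duncaniella at 0.82 and Muribaculum at 0.81 (rho 0.85, 0.78, 0.88 and 0.86, permutation, adjusted p = 8.86e-05 for each r). Without the 2 farthest rats these were 0.83, 0.79, 0.84 and 0.83. Duncaniella and Muribaculum belong to a Bacteroidales family typical of the rodent gut. All 7 Bacteroidales genera passed with positive r for Cellulosome (0.86 to 0.96), L-Arabinose utilization (0.67 to 0.83) and Xylose utilization (0.63 to 0.82). By rho all 7 passed for these 3 as well. For FOS and raffinose 4 of the 7 passed by r (0.31 to 0.48 over all 7) but 1 by rho, and within SHR males all 7 had negative r (-0.74 to -0.34). For Beta-Glucoside Metabolism 0 did (-0.38 to -0.26). Genera of other orders passed with positive r as well. With Xylose utilization, Streptomyces (0.74), Oscillibacter (0.72), Pseudomonas (0.71) and Flavonifractor (0.69) lay above the lowest Bacteroidales genera. With L-Arabinose utilization Streptomyces had 0.70 and Oscillibacter 0.67. With Cellulosome, Streptomyces and Flavonifractor had 0.77 and Oscillibacter 0.76, below all 7 Bacteroidales genera.

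The lowest values came from Gram-positive genera. Cellulosome had r = -0.85 with Romboutsia, and L-Arabinose and Xylose utilization had -0.84 and -0.85 with Turicibacter (permutation, adjusted p = 8.86e-05 for each). Without the 2 farthest rats these were -0.82, -0.84 and -0.82. In numbers of genera that passed, Cellulosome had 13 positive and 10 negative of 31, Xylose utilization 14 and 9, and L-Arabinose utilization 13 and 8. Shares of 1 whole cannot all rise together, so the positive and negative sides of such a count are not independent.

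The genera best known for cellulosomes did not go with the Cellulosome subsystem. Named after their values were seen, Ruminococcus had r = 0.05 with it (permutation, adjusted p = 0.87) and Clostridium -0.83 (adjusted p = 8.86e-05). Within the groups r ran from -0.75 in SHR females to 0.63 in WKY males for Ruminococcus, and from -0.94 to -0.71 for Clostridium. Without the 2 farthest rats the pooled values were -0.36 and -0.80. Both names are broad and hold many species without such a complex. How the function database assigns a read to Cellulosome is not given in the sources used here.

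FOS and raffinose had weaker partners, and its 2 genera of highest r were no Bacteroidales. Acutalibacter, a clostridial genus, came first at r = 0.57 (rho 0.66, permutation, adjusted p = 0.000331), then Pseudomonas at 0.54 (rho 0.58, adjusted p = 0.00291), and they were 0.64 and 0.60 without the 2 farthest rats. These 2 genera were not particular to it, since their r was 0.64 and 0.71 with Xylose utilization and 0.59 and 0.66 with L-Arabinose utilization. Limosilactobacillus was lowest with FOS and raffinose at -0.65 (permutation, adjusted p = 0.000702). Named after their values were seen, Lactobacillus had -0.53 with FOS and raffinose (permutation, adjusted p = 0.00945) and Bifidobacterium -0.26 (adjusted p = 0.194). Of 31 genera 13 passed with positive and 6 with negative r. Pseudomonas took 0.663 ± 0.109% of reads in SHR females, and whether that name is right for these reads was not tested.

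Beta-Glucoside Metabolism had 0 of 31 genera past the threshold. Its highest values were Lactobacillus at r = 0.33 (permutation, adjusted p = 0.13) and Bifidobacterium at 0.33 (adjusted p = 0.229), and its lowest Duncaniella at -0.38 (adjusted p = 0.141). In WKY males r with Lactobacillus was 0.94, but in SHR females it was -0.17. For the low subsystems, 14 of 93 pairs passed, which rest on 0 to 12 reads in a rat and are not read further.

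**Figure D3:**
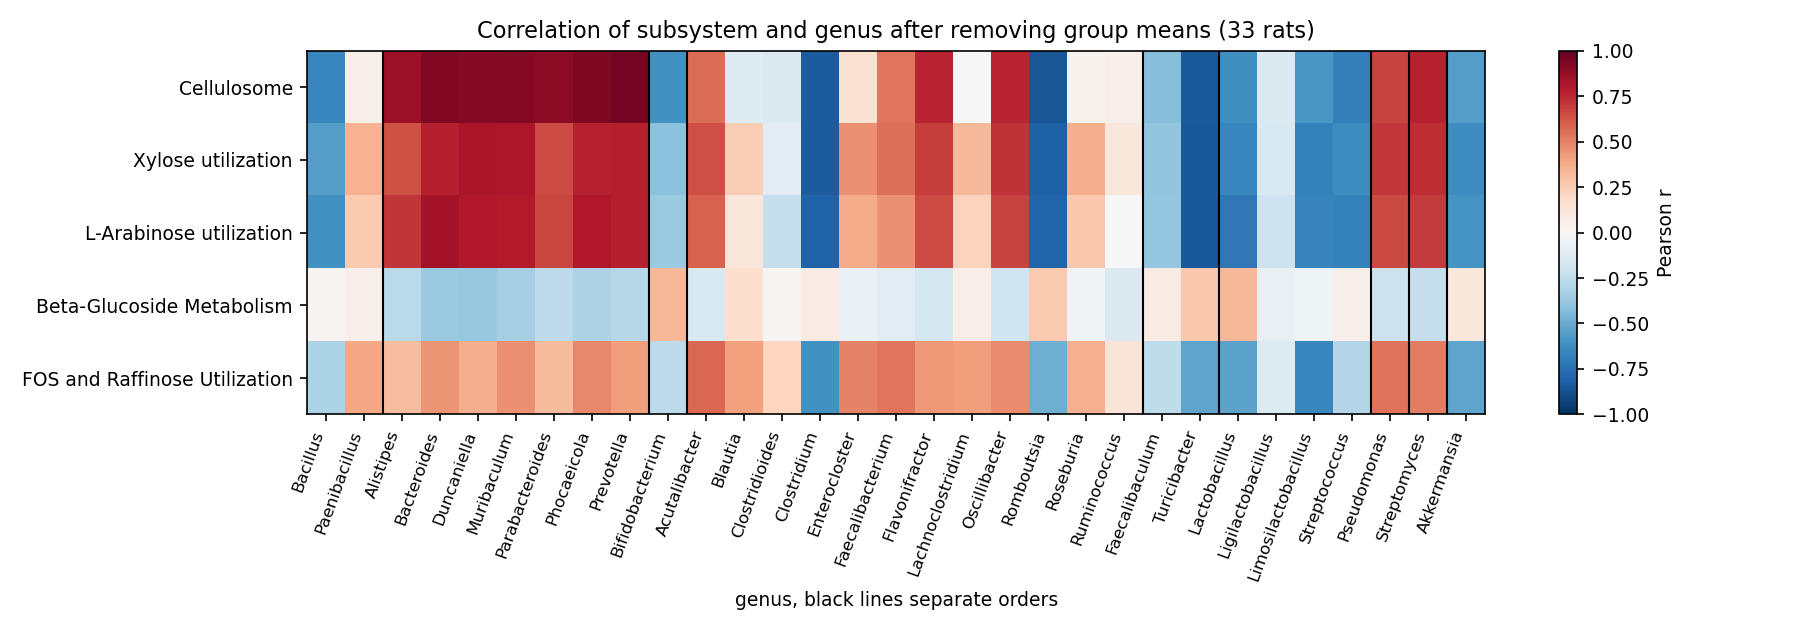
Pearson r between each of 5 subsystems (rows) and 31 genera (columns, grouped by order) over 33 rats after the group means were removed; red is positive and blue negative. The block of 7 Bacteroidales genera, from Alistipes to Prevotella, is red for Cellulosome (0.86 to 0.96) and both pentose pathways and pale blue for Beta-Glucoside Metabolism (-0.38 to -0.26).

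A single share, the sum of the 7 Bacteroidales genera, was formed after these values were seen and is given as a description. It averaged 27.1 ± 9.55% of reads in females and 20.8 ± 11.5% in males of SHR, and 24.3 ± 12.7% and 13.9 ± 11.1% in those of WKY, with rats from 3.40% to 41.3%. Its r was 0.97 with Cellulosome, 0.84 with L-Arabinose utilization, 0.81 with Xylose utilization, 0.45 with FOS and raffinose and -0.36 with Beta-Glucoside Metabolism. The order of the group means is that of Cellulosome: SHR females, WKY females, SHR males, WKY males.

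With that share removed from both sides, Xylose and L-Arabinose utilization had r = 0.88 with each other, and FOS and raffinose 0.68 and 0.65 with them. Beta-Glucoside Metabolism had 0.60 with FOS and raffinose and 0.48 with Xylose utilization. Cellulosome had 0.12 with L-Arabinose utilization, 0.22 with Xylose utilization, -0.01 with FOS and raffinose and 0.11 with Beta-Glucoside Metabolism. Before the removal those r were 0.83, 0.82, 0.43 and -0.32. The relation of Cellulosome with the pentose pathways was thus small once the share was removed. Its r of 0.97 with the share leaves little of Cellulosome to compare, and the cause of the drop was not tested.

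**Figure D4:**
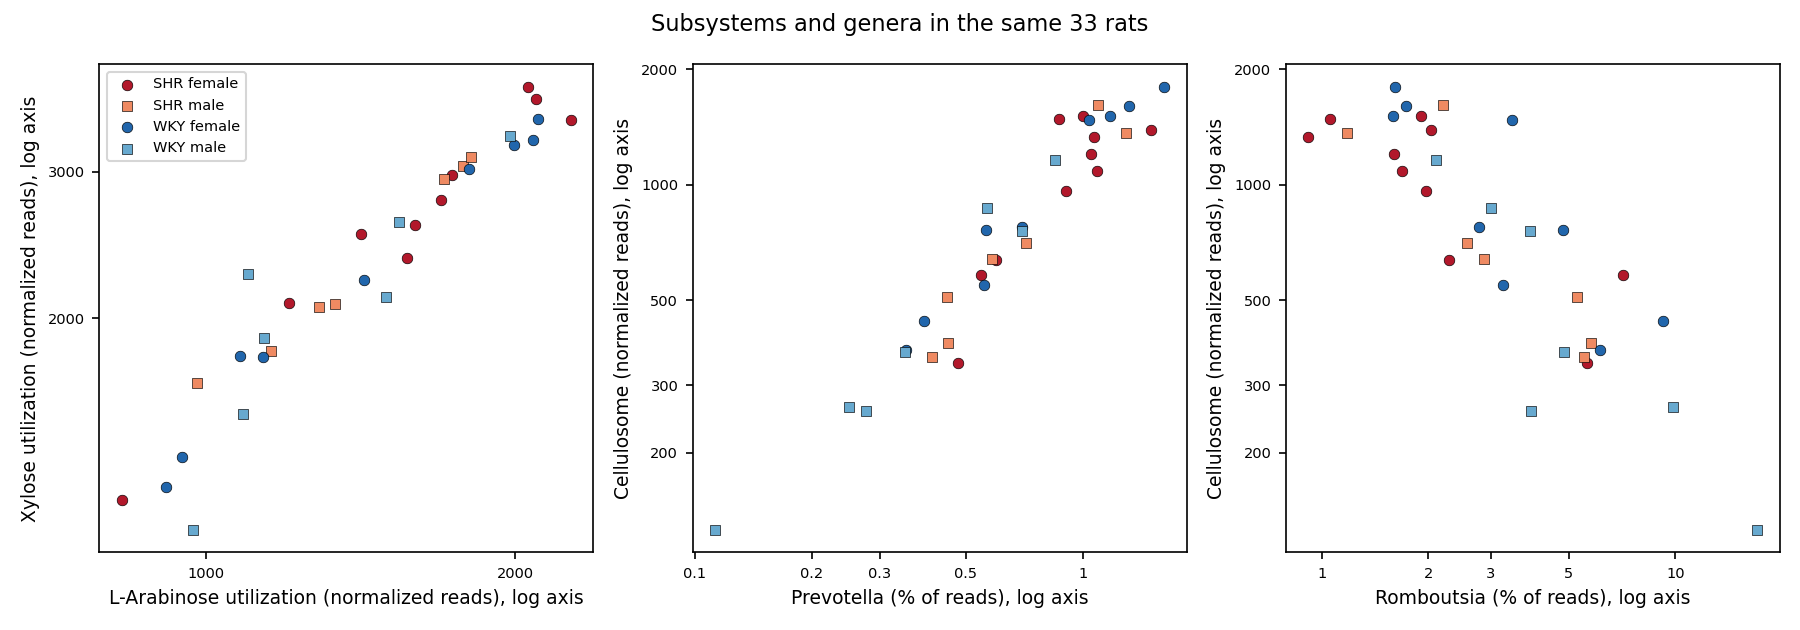
Values of 33 rats on log axes, coloured by group: Xylose against L-Arabinose utilization (left, normalized reads), and Cellulosome (normalized reads) against the percent of reads named Prevotella (middle) and Romboutsia (right). Rats of all 4 groups lie along the same lines, with r of 0.96, 0.96 and -0.85 after the group means were removed.

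Other functions with a like pattern were looked for among the 425 further functions that averaged at least 100 normalized reads, by a rule set after values were seen (the highest r). Nearest to Cellulosome were Outer membrane (r = 0.98), Propionyl-CoA to Succinyl-CoA Module (0.98), a route that links succinate and propionate, and Ton and Tol transport systems (0.97), which power uptake across the outer membrane. Nearest to L-Arabinose utilization were D-Galacturonate and D-Glucuronate Utilization (0.91), L-fucose utilization (0.91) and the Na(+)-translocating NADH-quinone oxidoreductase and rnf-like group of electron transport complexes (0.91). The last is no sugar pathway. For Xylose utilization they were D-Galacturonate and D-Glucuronate Utilization (0.93), the same electron transport group (0.91) and Lysine fermentation (0.89). Galacturonate is the main sugar acid of pectin, the fibre that no subsystem name held. The rho of these functions ran from 0.88 to 0.99, and each had an adjusted p of 8.12e-05 for r by permutation.

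For FOS and raffinose the nearest functions were Entner-Doudoroff Pathway, a route of sugar acid and glucose breakdown (r = 0.77, rho 0.76), and Glutamine, Glutamate, Aspartate and Asparagine Biosynthesis (r = 0.75, rho 0.67), each with a permutation adjusted p of 8.12e-05 for r. Beta-Glucoside Metabolism lay nearest to Sialic Acid Metabolism (r = 0.69, permutation, adjusted p = 0.000815), where rho was 0.42 with an adjusted p of 0.0641. Next came Lactose and Galactose Uptake and Utilization (r = 0.63, rho 0.66, adjusted p = 0.00396 for r), another pathway for a short beta-linked sugar, with r = 0.69 without the 2 farthest rats. By count, of 425 functions Cellulosome passed with 117 in the positive and 114 in the negative direction. L-Arabinose utilization passed with 121 and 113, Xylose utilization with 120 and 107, FOS and raffinose with 86 and 73, and Beta-Glucoside Metabolism with 8 and 7. A pass was thus common for all but Beta-Glucoside Metabolism.

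Depth moved with these values too. Deviations of log2 subsystem reads per library had r = 0.68 with L-Arabinose utilization, 0.67 with Xylose utilization, 0.51 with Cellulosome, 0.50 with FOS and raffinose and -0.20 with Beta-Glucoside Metabolism, and 0.43 with the summed Bacteroidales. Without the 3 shallowest libraries these were 0.49, 0.52, 0.32, 0.29, -0.04 and 0.21. The pooled values hid opposite signs: FOS and raffinose had r = 0.88 with depth in SHR females and -0.71 in SHR males, and Beta-Glucoside Metabolism had -0.93 in SHR males against 0.20 to 0.37 in the other groups. In SHR females r with depth was 0.95 for L-Arabinose and 0.94 for Xylose utilization, against 0.53 and 0.54 in WKY females. Depth was removed over all rats only, not within single groups. With depth removed from both sides, r was 0.96 for Cellulosome and Prevotella, 0.93 for Xylose and L-Arabinose utilization, and 0.76 and 0.75 for Cellulosome with L-Arabinose and Xylose utilization. Cellulosome with Prevotella and the pentose pathways with each other were thus about as large with depth removed. Cellulosome with the pentose pathways fell from 0.83 and 0.82. L-Arabinose utilization kept r = 0.83 with Bacteroides, but Xylose utilization fell to 0.72 with Duncaniella. With Turicibacter r weakened to -0.71 for L-Arabinose and -0.72 for Xylose utilization. FOS and raffinose fell to 0.55 and 0.60 with the pentose pathways and to 0.24 with Cellulosome. Its r weakened to 0.48 with Acutalibacter and to -0.53 with Limosilactobacillus.

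Other carbohydrate subsystems, 40 by a rule on their names that also takes in a few that are no sugar use, included some that differed between the strains. Averaged over the sexes, 3 rose and 6 fell in SHR (limma, adjusted p under 0.05), which is 22.5% of them against 17.2% of all functions. In females 1 rose and 2 fell (7.5% against 8.42%), and in males 0 and 2 (5% against 2.46%). Whether they differ in this from the 9 fibre and starch subsystems was not tested. Largest was 2-O-alpha-mannosyl-D-glycerate utilization, a sugar of heat-loving and marine organisms taken up by enterobacteria, at a log2 fold change of -0.94 ± 0.12 (SE, adjusted p = 6.00e-06). Its means were 73.4 ± 9.13 normalized reads in SHR females and 83.4 ± 18 in SHR males, against 143 ± 35.4 in WKY females and 170 ± 65.9 in WKY males. Trehalose Uptake and Utilization (-0.53 ± 0.09, limma adjusted p = 0.00024) and Fructose utilization (-0.34 ± 0.09, adjusted p = 0.00737) fell as well. Those that rose were Rhamnose containing glycans (0.22 ± 0.06, limma adjusted p = 0.0064), the Lacto-N-Biose I and Galacto-N-Biose Metabolic Pathway for host mucin and milk sugars (0.33 ± 0.09, adjusted p = 0.014), and Mannose-sensitive hemagglutinin type 4 pilus, no sugar pathway (0.73 ± 0.26, adjusted p = 0.0474). Group means of that pilus were only 0.456 to 2.04 normalized reads, and 1 read of the shallowest library, SHR female 9, counts as 3.07. Maltose and Maltodextrin Utilization, which covers the breakdown products of starch, was at -0.08 ± 0.04 (limma, adjusted p = 0.18), and Glycogen metabolism at 0.11 ± 0.04 (adjusted p = 0.0517). Both were picked after their values were seen.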

How the data were processed

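DNA of cecal contents from 33 rats was made into Nextera libraries, per the labels' protocols. FastQC 0.11.5, cutadapt 2.6, Trimmomatic 0.36 and DESeq2 are named in the submitters' processing notes. Function database and assignment tool: not given in the sources used here. The authors deposited a normalized signal per subsystem, its read count divided by a size factor. Dividing by the smallest value above 0 gave whole reads for 100% of values (tolerance 0.01 read). Genera are in percent of reads, as deposited. The authors' deposited model tables hold log2 fold changes and adjusted p-values.

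All 1057 functions (1024 with a read) were fitted with limma 3.58.1 (trend, robust) in R 4.3.3 on log2(normalized value + 1), with 4 group means over 33 rats and 2-sided tests. On this scale the change of low functions is understated. The p-values measure the spread between rats. The 44 alternatives were pseudocounts of 0.5 and 10, a filter (at least 10 in at least 7 rats, 650 functions), equal totals, thinning to 95952 reads, limma without trend and robust estimation, edgeR 4.0.16 and DESeq2 1.42.0 on recovered reads, only the groups compared, only functions with a read, and leaving out libraries. Correlations used 100000 permutations within groups, 2-sided, Benjamini-Hochberg adjusted (Python 3.11.15, scipy 1.17.1). The fit was tested on simulated data. Counting intervals and floors (3 reads) cover counting error only.

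Subsystems and lists were chosen with earlier results of these data known. Values by group are given for called subsystems or, with none called, the 6 with the highest mean; for each, the 2 genera of highest r; of other carbohydrate subsystems, the 3 of smallest adjusted p in each direction.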

Additional observations from a re-analysis of the deposited data

Results flagged for a closer look

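In 2 of the 20 sets of values examined (5 subsystems in 4 groups), 1 rat stood farther from the rest of its group than Dixon's 95% limit on the log2 scale. Chance flags about 1 in 20 such sets. The lowest WKY female, WKY female 2, had 1234.2 normalized reads of Beta-Glucoside Metabolism, and the next of its group had 1516.5 (gap over range 0.506, limit 0.493). The lowest SHR female, SHR female 9, had 1208.2 normalized reads of Xylose utilization, and the next had 2085 (gap over range 0.476, limit 0.466). SHR female 9 was also the shallowest library, at 95952 subsystem reads, and the part of depth in its value was not tested.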

How the results depend on the processing

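The count of called subsystems was 0 in all 262 counts made, over 6 comparisons and 44 alternatives (the fit on only the groups compared gave 4 comparisons), and over the 5 well-covered subsystems the smallest adjusted p was 0.0526. Of their log2 fold changes, 1260 kept their sign and 50 turned it, all of them small and uncalled. Without the 3 shallowest libraries, Beta-Glucoside Metabolism turned to 0.00122 between the sexes of SHR and to 0.0784 for strain by sex, and Fructooligosaccharides(FOS) and Raffinose Utilization to 0.0285 for the strains averaged over the sexes. Thinned, FOS and raffinose turned to -0.00689 between the sexes of SHR. With 1 library left out at a time, log2 fold changes that turned ranged from -0.18 to 0.00255 (strains in males), -0.13 to 0.00561 (sexes of WKY) and -0.11 to 0.0718 (strain by sex) for Beta-Glucoside Metabolism, from -0.0445 to 0.28 for Cellulosome (strains in females), from -0.0469 to 0.0185 (strains averaged) and -0.0285 to 0.0739 (sexes of SHR) for FOS and raffinose, and, for strain by sex, from -0.0627 to 0.14 for L-Arabinose utilization and from -0.0932 to 0.17 for Xylose utilization. The cause was not tested. For Beta-Glucoside Metabolism, r without the 2 farthest rats turned to 0.0805 with L-Arabinose utilization and 0.0769 with Xylose utilization. With Xylose utilization it was 0.0762 without the 3 shallowest libraries and 0.14 with depth removed. The last 2 settings, equal totals for r and the fit on functions with a read were added after seeing the data. Of 20 rho, 18 lay on the same side of the threshold as r, and 2 missed the threshold that r passed. Of 80 r recomputed without a test, 76 kept their sign. Values within groups are not in these counts. Scaling to the total of the carbohydrate subsystems was not run, since the table used has no column of categories. Depth limits the 4 thin subsystems, at 0 to 12 reads in a rat. No paired analysis was possible because the samples are separate rats that nothing in the labels pairs.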
